A study of Arabidopsis thaliana with 9 samples.

Results

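The genes described here are those annotated to fatty acid biosynthesis in Arabidopsis thaliana seeds. The Gene Ontology annotation deposited with the expression tables put 83 genes in the fatty acid biosynthetic process. The desaturase gene AT1G43800 was left out by name, and SSI2 and FAD5 were left out because they were also annotated to oxylipin or jasmonic acid metabolism, which left 80 genes. Of these, 53 reached at least 1 FPKM (fragments per kilobase of gene length, normalised to the total of the library) in at least 3 of the 9 libraries, against 13679 of all 22555 genes listed. Apart from the gene left out by name, the rule used annotation and level, not a difference between groups. It was set with earlier results of these data known, so the list is not blind to them. AT1G43800 is not among the genes reported here. FAH2 was tied to the groups through its level: it reached 1 FPKM only in the libraries labelled rgl2-13 DOF6ioex, so it had to differ between groups.

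Fatty acids of plant cells are made mainly in the plastid. Acetyl-CoA carboxylase forms malonyl-CoA, the fatty acid synthase enzymes lengthen a chain carried on acyl carrier protein (ACP), a stearoyl-ACP desaturase introduces a cis bond, and thioesterases release the chain for export. Outside the plastid, desaturases and elongases modify the acyl chains and acyltransferases build triacylglycerol, the storage oil laid down in Arabidopsis seeds while they fill and used up after germination.

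RNA was sequenced from freshly harvested seeds imbibed for 8 h at room temperature. The first group was DOF6ioex, a line in which overexpression of the transcription factor DOF6 is induced by estradiol, kept in mock solution (named as water in the labels). The second group was DOF6ioex in 50 µM β-estradiol, and the third, labelled rgl2-13 DOF6ioex, carried the same transgene in the rgl2-13 background, a mutant label for the DELLA gene RGL2, also in 50 µM β-estradiol. Each group had 3 libraries. All 9 libraries carried the DOF6 transgene, so an effect of estradiol itself cannot be told apart from DOF6 induction, and with no mock library of rgl2-13 DOF6ioex, genotype and treatment cannot be told apart between the third group and the first. The labels used here name neither the promoter behind the transgene nor the number of seeds or plants behind a library, so p-values measure only the spread between these libraries, which may be technical.

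DOF6 was at 0.41 to 0.86 FPKM in mock and at 33.73, 32.05 and 36 FPKM in DOF6ioex with estradiol. In the third group it was at 52.25, 21.43 and 27.54 FPKM, above those libraries in replicate 1 and below them in the others. The part of this uneven DOF6 level in the differences of the third group was not tested. RGL2 was at 7.57 to 13.1 FPKM in DOF6ioex but at 16.2 to 18.8 FPKM where the label is rgl2-13 DOF6ioex, higher where the label names a mutant, so that group is called by its label throughout. The 8 embryo storage genes (cruciferins, napins and oleosins) were abundant in every library, but summed to 66000 to 71520 FPKM in the third group against 77370 to 107600 in mock and 76370 to 82520 in DOF6ioex with estradiol, and 5 of the 8 lay below all other libraries there. This lower storage level accompanies each difference of the third group given below, and its part in them was not tested. The endosperm gene EPR1 was at 33810 to 67410 FPKM, with the lowest value in replicate 1 and the highest in replicate 2 of the third group. The part of this spread in the differences of the third group was not tested either. The testa genes BAN and TT10 did not exceed 0.07 FPKM. Replicate 1 of the libraries labelled rgl2-13 DOF6ioex stood apart: its median gene lay 0.21 above the gene's 9-library mean on the log2(FPKM + 1) scale, while the other 8 libraries lay between -0.08 and 0.04. For the fatty acid genes, medians, counts at an unadjusted p and the leading differences that involve the third group are given with and without it. The number of reads per library is unknown, since the tables hold no counts.

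In developing seeds WRI1, an AP2-type transcription factor, activates many plastid fatty acid genes through the AW-box (C, T and G at alternate bases and then CG after 7 bases of any kind). The start regions of the genes were searched for it, as an element known for this pathway. The window ran from 250 bases before to 50 bases after the annotated gene start in TAIR10.1, both strands were searched, and a match is a description, not a binding site. The box was found in 4 of 51 fatty acid genes that could be placed, or 7.84% (95% Wilson interval 3.09 to 18.5), against 12.4% of the 13529 genes past the level floor and 11.9% of 27443 protein-coding genes. The share was thus no higher among the fatty acid genes. The 4 matches are shown on the strand of the gene with the box in capitals. They lie in ACLA-3, a subunit gene of cytosolic ATP-citrate lyase (chr1:3042020-3042045, plus strand), in CAC3, for the carboxyltransferase alpha subunit of plastid acetyl-CoA carboxylase (chr2:15917026-15917055, plus strand), in the elongase gene KCS16 (chr4:16394535-16394564, plus strand) and in the acyl carrier protein gene ACP1 (chr3:1392928-1392957, minus strand).
ACLA-3: ctcaacttCATCGATCTTATCGtctc
CAC3: aggagtcaCGTGGGCACGTGCGagagagca
KCS16: cttgcaaaCTTTGATTAGGTCGtcgttatc
ACP1: ttcacgctCTTTGTACACTCCGccctctct

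The box of KCS16 begins 57 bases before the gene start. Those of CAC3, ACP1 and ACLA-3 begin at base 3, 6 and 33 of the transcribed sequence, so 1 of the 51 genes (1.96%) held a box in the bases before the start, against 9.93% of the genes past the level floor. WRI1 itself was at 0.99 to 1.89 FPKM.

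Acyl carrier proteins hold the growing chain. As a group their 7 genes, mitochondrial ones included, lay farthest from their means in the library that stood apart. ACP1 was at 2.39 FPKM there and higher, at 2.71 FPKM, in mock replicate 1. For plastid forms the 150 bases before the start are shown, namely ACP1 (chr3:1392955-1393104, minus strand), ACP2 (chr1:20389197-20389346, plus strand), ACP3 (chr1:20403167-20403316, minus strand) and ACP4 (chr4:12869856-12870005, plus strand). All are 5′ to 3′ on the strand of the gene in TAIR10.1 with TATAAA in capitals.
ACP1: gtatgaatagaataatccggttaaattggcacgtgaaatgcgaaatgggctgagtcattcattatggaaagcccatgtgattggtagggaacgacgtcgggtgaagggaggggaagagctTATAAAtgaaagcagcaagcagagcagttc
ACP2: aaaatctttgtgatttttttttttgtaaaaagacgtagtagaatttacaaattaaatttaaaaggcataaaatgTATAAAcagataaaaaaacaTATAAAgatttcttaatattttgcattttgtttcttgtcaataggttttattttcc
ACP3: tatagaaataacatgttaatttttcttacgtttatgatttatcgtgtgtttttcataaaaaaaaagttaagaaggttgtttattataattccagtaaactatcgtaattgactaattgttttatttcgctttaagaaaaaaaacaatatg
ACP4: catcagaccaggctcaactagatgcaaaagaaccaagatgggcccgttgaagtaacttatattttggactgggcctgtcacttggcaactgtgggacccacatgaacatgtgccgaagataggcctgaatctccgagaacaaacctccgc

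ACP1 held TATAAA 30 bases before its start and ACP2 held it 76 and 56 bases before, while these letters were not in the window of ACP3 or ACP4. Over the 51 fatty acid genes, 18 (35.3%) held TATAAA on either strand of this window, against 31.1% of the genes past the level floor and 34% of all protein-coding genes. The 4 genes thus differ in this element, which was looked for after their values had been seen.

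The median level of the 53 fatty acid genes was 5.12 FPKM, against 9.05 FPKM for all genes past the floor, and 17 of them reached a mean of 10 FPKM. Together the 53 genes made up 0.0915% to 0.117% of the FPKM of a library. Their summed FPKM had a mean of 722 per library. Of this, subunits of the SnRK1 kinase held 178.4, the fatty acid synthase genes 29.08 and the genes grouped under acetyl-CoA carboxylase 30.1. Per gene, the highest library exceeded the lowest by a median of 1.62-fold, with a range of 1.09-fold for AKINBETA1 to 3.14-fold for FAD8. This ratio was not computed over all genes, and for 31 of the 53 genes the highest library was replicate 1 of the third group. FPKM is scaled by gene length, so levels can be set beside each other between genes.

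**Figure D1:**
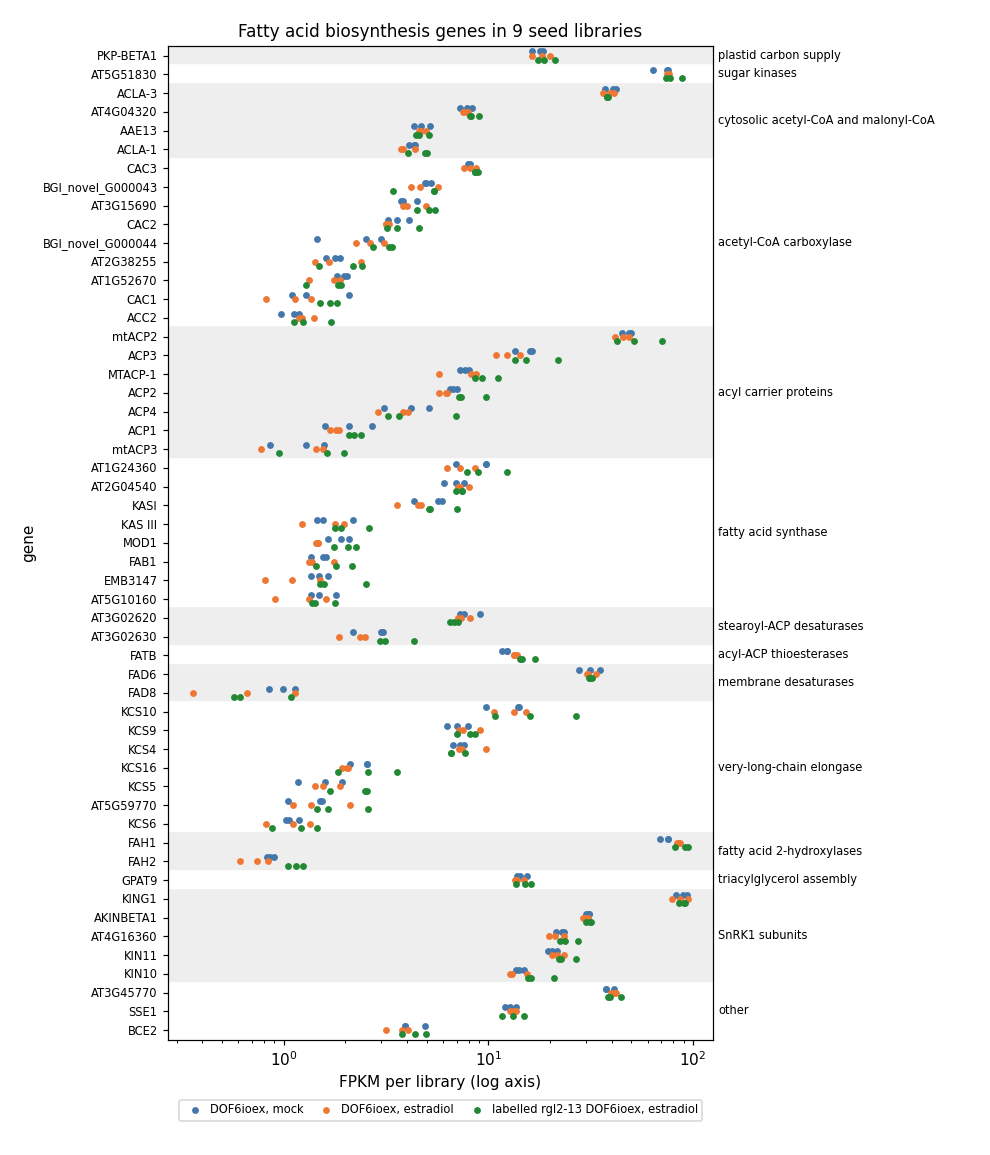
Level of each of the 53 fatty acid biosynthesis genes in each of the 9 libraries, in FPKM on a log axis, with genes grouped by role (names on the right). Each point is 1 library, coloured by group; points of the 3 groups lie close together for most genes, from FAD8 at 0.36 FPKM in its lowest library to KING1 at 94.5 FPKM in its highest.

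Carbon enters the pathway through plastid pyruvate kinase and pyruvate dehydrogenase. PKP-BETA1, the beta subunit of the kinase, was at 17.9, 18.4 and 16.3 FPKM in mock, at 16.3, 18.2 and 19.9 in DOF6ioex with estradiol and at 21.2, 17.4 and 18.6 in the third group (labelled rgl2-13 DOF6ioex), and the 3 groups overlapped. PDH-E1 BETA, a gene for a subunit of plastid pyruvate dehydrogenase, was below the floor at 0.12 to 0.47 FPKM. AT2G34590, a related gene of plastid carbon supply annotated as a transketolase family protein, was at 4.62 to 7.32 FPKM. The level of PDH-E1 BETA alone thus does not give that of the enzyme. The fructokinase AT5G51830 was at 63.6 to 88.7 FPKM. Of the cytosolic enzymes that make acetyl-CoA and malonyl-CoA, ACLA-3 was the most abundant (36.4 to 41.9 FPKM), and ACLA-1 lay near 4.30 FPKM. The malonyl-CoA synthetase AAE13 had a mean of 4.73 FPKM and AT4G04320, annotated as malonyl-CoA decarboxylase, 7.99 FPKM.

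The heteromeric acetyl-CoA carboxylase of the plastid was uneven in its subunits. CAC3, the carboxyltransferase alpha subunit, had the highest mean (8.29 FPKM), CAC2, the biotin carboxylase, followed at 3.53 FPKM, and CAC1, a biotin carboxyl carrier protein, was at 1.42 FPKM. The other carrier protein, BCCP2, stayed below the floor at 0.13 to 0.52 FPKM. AT2G38255 and the unnamed loci BGI_novel_G000043 and BGI_novel_G000044 share the annotation of CAC3, so reads could be split among these 4 and their separate values are uncertain. The plastid-encoded beta subunit, ATCG00500, did not exceed 0.12 FPKM; whether the libraries were made from polyadenylated RNA is not given in the sources used here. ACC2, a homomeric carboxylase, had a mean of 1.24 FPKM. The biotin/lipoyl attachment domain proteins AT3G15690 and AT1G52670 were at 4.44 and 1.75 FPKM.

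The acyl carrier proteins spanned a wide range of levels, with mitochondrial and plastid forms interleaved. The mitochondrial mtACP2, the most abundant, was at 48.6, 50.0 and 45.1 FPKM in mock, at 41.4, 45.4 and 48.8 in DOF6ioex with estradiol and at 70.8, 42.6 and 51.2 in the third group. Of these 9 values only the 70.8 of replicate 1 stood out. The plastid ACP3 was at 16.4, 16.0 and 13.5 FPKM in mock, at 10.9, 12.3 and 14.2 in DOF6ioex with estradiol and at 21.9, 13.5 and 15.2 in the third group, where replicate 1 was again the highest and the groups overlapped. ACP2 was at 6.51, 6.99 and 6.69 FPKM in mock, at 5.73, 6.27 and 6.19 in DOF6ioex with estradiol and at 9.72, 7.17 and 7.31 in the third group; no group overlapped another, and DOF6ioex with estradiol was the lowest. ACP4 (2.87 to 6.92 FPKM), MTACP-1 (5.70 to 11.2), ACP1 (1.59 to 2.71) and mtACP3 (0.77 to 1.96) overlapped between mock and both estradiol groups, except that MTACP-1 was higher in the third group than in mock. Between the estradiol groups ACP1 did not overlap, at 1.68 to 1.87 FPKM in DOF6ioex and 2.09 to 2.39 in the third group. ACP5 did not exceed 0.11 FPKM.

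Among the fatty acid synthase enzymes, AT1G24360, annotated as the ketoacyl-ACP reductase, had the highest mean (8.61 FPKM, range 6.24 to 12.3). The condensing enzyme KASI was at 5.64, 5.96 and 4.32 FPKM in mock, at 3.58, 4.55 and 4.69 in DOF6ioex with estradiol and at 6.99, 5.15 and 5.18 in the third group, which lay above the estradiol-treated DOF6ioex libraries without overlap, while mock overlapped both. MOD1, the enoyl-ACP reductase that completes each cycle, was at 1.90, 2.08 and 1.65 FPKM in mock, at 1.44, 1.47 and 1.47 in DOF6ioex with estradiol and at 2.26, 1.76 and 2.07 in the third group, so the estradiol-treated DOF6ioex libraries lay below all others. KAS III, which starts the chain, FAB1, the synthase of the last plastid elongation step, the malonyl transferase EMB3147 and the dehydratase AT5G10160 had means of 1.45 to 1.83 FPKM. AT2G04540, a mitochondrial ketoacyl-ACP synthase, was steadier at 6.03 to 8.01 FPKM. A related dehydratase gene, AT2G22230, lay just outside the floor: it reached 1.05 FPKM in 1 library, while FAD8 and FAH2, just inside, reached 1 FPKM in 3.

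At the end of the plastid pathway, the stearoyl-ACP desaturase gene AT3G02620 was at 9.09, 7.26 and 7.58 FPKM in mock, at 8.13, 7.08 and 7.36 in DOF6ioex with estradiol and at 7.09, 6.46 and 6.77 in the third group, the last being below mock without overlap. Its neighbour AT3G02630 was at 2.97, 3.04 and 2.18 FPKM in mock, at 1.86, 2.50 and 2.36 in DOF6ioex with estradiol and at 4.31, 2.96 and 3.11 in the third group. The neighbours thus lay in opposite order in the third group, but they and AT3G02610 are similar genes among which reads could be split, so their separate values are uncertain. FATB, the thioesterase that releases mainly saturated chains, was at 12.3, 12.3 and 11.7 FPKM in mock, at 13.3, 13.3 and 13.7 in DOF6ioex with estradiol and at 16.9, 14.2 and 14.5 in the third group. Its 3 groups formed an ascending order with no overlap. The thioesterase of unsaturated chains, FaTA, did not exceed 0.55 FPKM. FAD6, the plastid omega-6 desaturase, was at 27.8 to 35.1 FPKM, and FAD8, a plastid omega-3 desaturase, at 0.36 to 1.13 FPKM.

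Of 17 elongase genes, 7 passed the floor. KCS10, also known as FIDDLEHEAD and required for the cuticle, had the highest mean (14.5 FPKM) and the widest spread, at 14.02, 14.06 and 9.72 FPKM in mock, at 10.7, 13.4 and 15.2 in DOF6ioex with estradiol and at 26.7, 10.7 and 16.0 in the third group. Only replicate 1 of the third group exceeded 16 FPKM. KCS9 and KCS4 had means of 7.65 and 7.41 FPKM. The wax and cuticle enzymes KCS16, KCS5 and KCS6 had means of 2.36, 1.81 and 1.12 FPKM, and AT5G59770, annotated as a dehydratase of the elongase complex, 1.59 FPKM. KCS18, or FAE1, the elongase that makes the long chains of Arabidopsis seed oil, was below the floor at 0.04 to 0.78 FPKM. The fatty acid 2-hydroxylase FAH1, which acts on sphingolipid acyl chains, was the second most abundant fatty acid gene, at 75.1, 68.8 and 75.6 FPKM in mock, at 84.96, 83.64 and 86.21 in DOF6ioex with estradiol and at 94.4, 81.2 and 91.1 in the third group. Both estradiol groups lay above mock without overlap and overlapped each other. FAH2 was at 0.61 to 1.24 FPKM.

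The SnRK1 kinase, which senses low energy and phosphorylates WRI1 among many targets, supplied 5 of the 53 genes. Its regulatory gamma-type subunit KING1 was the most abundant of all fatty acid genes, at 82.7, 89.4 and 92.9 FPKM in mock, at 79.2, 86.1 and 94.5 in DOF6ioex with estradiol and at 90.1, 91.1 and 85.4 in the third group, with full overlap. The beta subunits AKINBETA1 and AT4G16360 had means of 30.5 and 22.8 FPKM. Of the catalytic subunits, KIN11 had a mean of 22.04 FPKM. KIN10, the other, was at 13.7, 15.0 and 14.1 FPKM in mock, at 13.1, 12.8 and 15.4 in DOF6ioex with estradiol and at 21.0, 16.1 and 15.7 in the third group, which lay above both other groups. The remaining genes were GPAT9, the acyltransferase that begins glycerolipid assembly (13.4 to 16.1 FPKM), the enoyl reductase AT3G45770 (37.4 to 44.4), SSE1, a peroxin needed for oil and protein bodies (11.7 to 15.0), and BCE2, of branched-chain amino acid breakdown (3.14 to 4.94).

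The 27 genes below the floor stayed at or under 1.05 FPKM in every library. They were mostly elongases (10 genes) and membrane desaturases (6 genes), and 11 of them had a mean under 0.1 FPKM. These genes were not tested.

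The comparison of DOF6ioex in estradiol with DOF6ioex in mock addresses what DOF6 induction does to the imbibed seed. No fatty acid gene passed the test. The fatty acid synthase and acyl carrier protein genes were fitted lower more often than higher, and FAH1 and FATB were fitted higher, all by small amounts. Differences were fitted with limma on log2(FPKM + 1) over all 13679 genes, with p-values adjusted by the Benjamini-Hochberg method over all of them, and such differences understate the change of low genes. In these seed libraries fewer cells of a type and less RNA per cell cannot be told apart. Of all genes, 4 were higher (0.0292%) and 17 lower (0.124%) at an adjusted p under 0.05, 0.154% in all, and of the 53 fatty acid genes 0 were. The smallest adjusted p among them was 0.693. At an unadjusted p under 0.05, limma counted 1 fatty acid gene higher (1.89%, against 4.51% of all genes) and 1 lower (1.89%, against 2.31%). Leaving out each library in turn gave 0 to 1 higher and 0 to 3 lower, with 187 to 1116 and 191 to 503 among all genes. Median-of-ratios scaling, which sets each library to the median gene, gave 1 and 3, with 517 and 701 among all genes. The higher one was FAH1, with a mean of 73.2 ± 3.76 FPKM (SD, 3 libraries) in mock and 84.9 ± 1.28 in estradiol, a log2 difference of 0.21 ± 0.08 (SE; 95% interval 0.03 to 0.40; unadjusted p = 0.0269). The lower one was MOD1, with 1.88 ± 0.216 FPKM in mock and 1.46 ± 0.0173 in estradiol, a log2 difference of -0.22 ± 0.10 (95% interval -0.45 to -0.0006; unadjusted p = 0.0495, adjusted p = 0.732).

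Groups did not overlap for FATB and FAH1, higher in estradiol (3.77%, against 10.6% of all genes), and for MOD1, KCS16 and ACP2, lower in estradiol (5.66%, against 4.31%). FATB differed by 0.14 ± 0.09 on the log2 scale (adjusted p = 0.788) and ACP2 by -0.13 ± 0.11 (adjusted p = 0.834). Over the 53 genes the fitted difference was positive for 21 and negative for 32, a median of -0.04 beside 0.04 for all genes, of which 62.6% were fitted higher. The shift of the fatty acid genes relative to all genes was thus -0.08 on the log2 scale. By role, 7 of 8 synthase genes (median -0.19) and 6 of 7 acyl carrier proteins (median -0.13) were fitted lower, none of them past the test. The 9 genes of the carboxylase group were divided 5 to 4 (median 0.01) and the 7 elongases 5 to 2 (median 0.06). The carboxylase group includes the attachment domain proteins AT3G15690 and AT1G52670 and the loci that share the annotation of CAC3, so it is not a count of separate enzyme genes. With the FPKM rescaled to the median of ratios between libraries the synthase and acyl carrier medians were -0.23 and -0.17, so their direction did not turn. Without mock replicate 1 the acyl carrier median was -0.03, and without replicate 1 of DOF6ioex in estradiol the synthase median was -0.12.

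The intervals bound what could have been missed. For each of the 53 genes the 95% interval of the difference lay within 2-fold in either direction on this scale, and for 48 genes within 1.5-fold. The outermost bounds were -0.63, for ACP4, and 0.61, for KCS10. With a pseudocount of 0.1 FPKM, which compresses low genes less, the interval lay within 2-fold for 52 of the 53 genes.

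**Figure D2:**
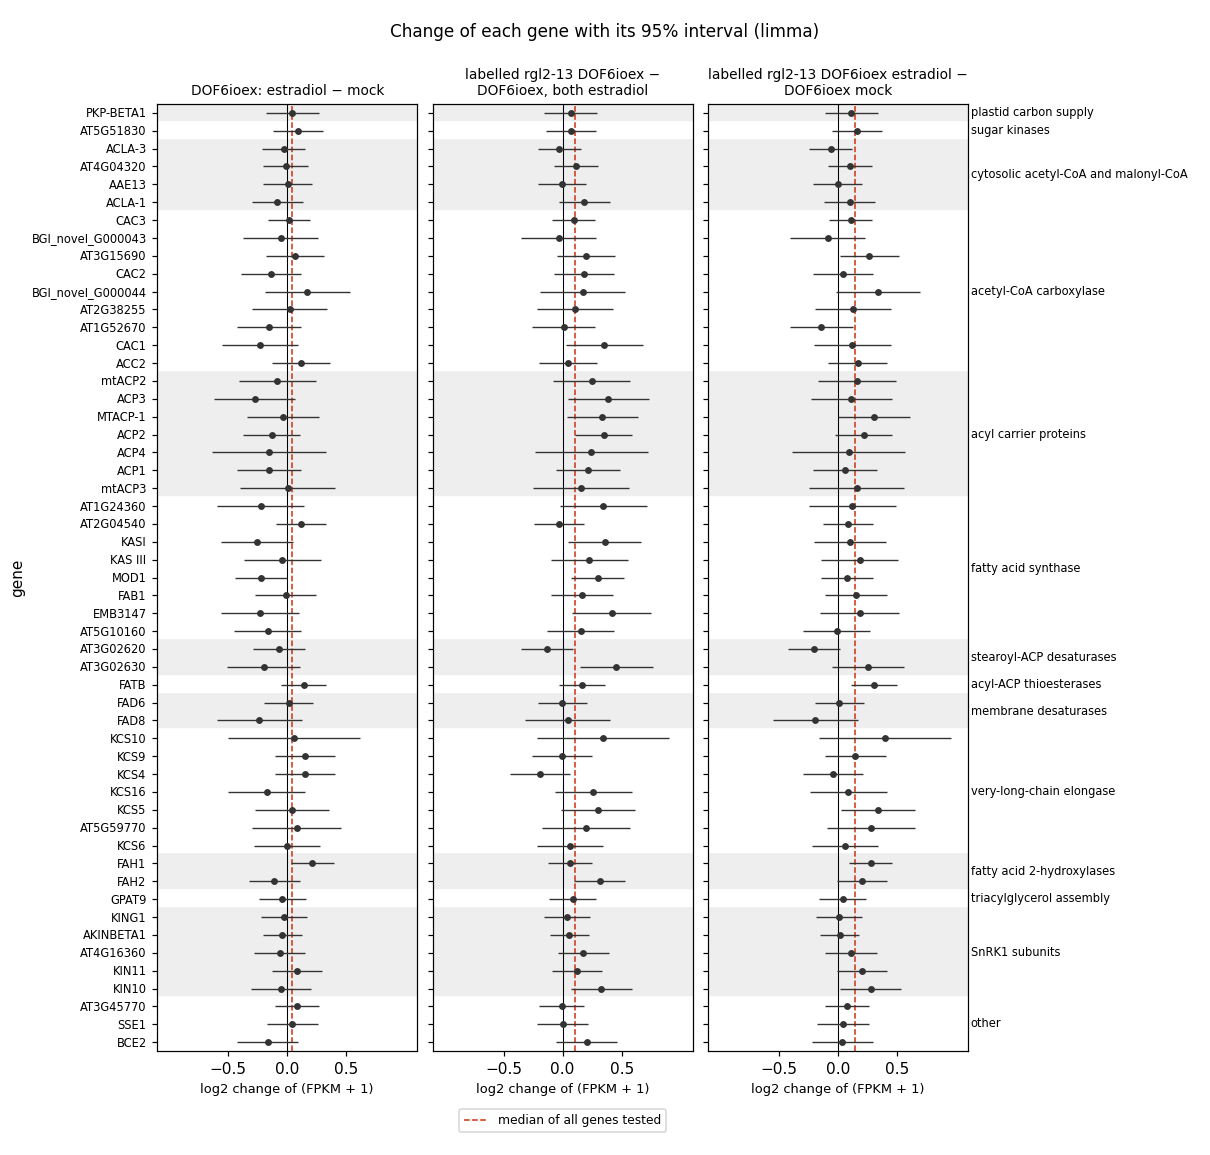
Fitted difference of each of the 53 genes in the 3 comparisons, as log2 change of (FPKM + 1), from limma; points are estimates, horizontal bars are 95% intervals, and the dashed line is the median of all 13679 genes. All intervals lie within -1 to 1; in the middle panel the acyl carrier protein and synthase genes lie mostly to the right of the dashed line, and in the left panel mostly to its left.

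The libraries labelled rgl2-13 DOF6ioex were compared with DOF6ioex, both in estradiol, which addresses how the rgl2-13 background alters the seed with DOF6 induced. Again 0 of the 53 fatty acid genes passed the test (smallest adjusted p = 0.221), against 19 higher (0.139%) and 3 lower (0.0219%) of all genes, 0.161% in all. At an unadjusted p under 0.05, limma counted 10 fatty acid genes higher (18.9%, against 12.6% of all genes) and 0 lower (against 2.63%). FAH2, which had to differ, is among these 10, and without it the count is 9 of 52. The count moved with the libraries and the scaling. It was 6 higher and 1 lower without replicate 1 of the third group (845 and 354 of all genes, against 1724 and 360). Without replicate 1 of DOF6ioex in estradiol it was 5 and 0. Over all single libraries left out it was between 5 and 15 higher, while the count of all genes moved from 845 to 3067 higher. With median-of-ratios scaling it was 7 higher and 2 lower, with 942 and 1024 among all genes. The others of the 10 were the acyl carrier proteins ACP2, ACP3 and MTACP-1, the synthase genes KASI, MOD1 and EMB3147, the carboxylase gene CAC1, the desaturase gene AT3G02630 and KIN10.

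The largest of these differences was that of AT3G02630, 2.24 ± 0.336 FPKM (SD, 3 libraries) in DOF6ioex and 3.46 ± 0.740 in the libraries labelled rgl2-13 DOF6ioex, a log2 difference of 0.45 ± 0.14 (SE; 95% interval 0.15 to 0.76). ACP2 stood at 6.06 ± 0.291 and 8.07 ± 1.43 FPKM, a log2 difference of 0.35 ± 0.11 (adjusted p = 0.229). KASI stood at 4.27 ± 0.604 and 5.77 ± 1.05 FPKM, a difference of 0.36 ± 0.14 (adjusted p = 0.286), and KIN10 at 13.7 ± 1.44 and 17.6 ± 2.97 FPKM, a difference of 0.33 ± 0.12 (adjusted p = 0.262). Without replicate 1 of the third group these differences were 0.32 for AT3G02630, 0.22 for ACP2, 0.23 for KASI and 0.20 for KIN10. Groups did not overlap for 10 fatty acid genes, all higher in the libraries labelled rgl2-13 DOF6ioex (18.9%, against 15.8% of all genes), and for 0 lower (against 4.96%). FAH2 is among the 10 by its selection, and without it the count is 9 of 52. These are not all the genes counted at an unadjusted p under 0.05: ACP1, FATB and AT4G04320 take the place of ACP3, MTACP-1 and EMB3147. The share is close to that of all genes.

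Fitted differences were positive for 43 of the 53 genes (81.1%, against 76.4% of all genes), with a median of 0.16 beside 0.11 for all genes, a shift of 0.06 relative to them. Median-of-ratios scaling brought the median of all genes to 0.01 and divided the fatty acid genes 33 to 20. All 7 acyl carrier proteins (median 0.25) and 7 of 8 synthase genes (median 0.26) were fitted higher, and under that scaling their medians were 0.15 and 0.19 in the same direction. Without replicate 1 of the group labelled rgl2-13 DOF6ioex the acyl carrier median was 0.18, with 6 of 7 genes fitted higher, the synthase median was 0.14, the median over the 53 genes was 0.05 and that of all genes 0.04. This comparison shares the estradiol-treated DOF6ioex libraries with the one before it, and their acyl carrier and synthase values were low in replicate 1 (medians of -0.23 and -0.26 from the 9-library mean). The 95% intervals lay within 2-fold for all 53 genes tested and within 1.5-fold for 41, with outermost bounds of -0.45, for KCS4, and 0.90, for KCS10. With a pseudocount of 0.1 FPKM, 49 intervals lay within 2-fold.

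**Figure D3:**
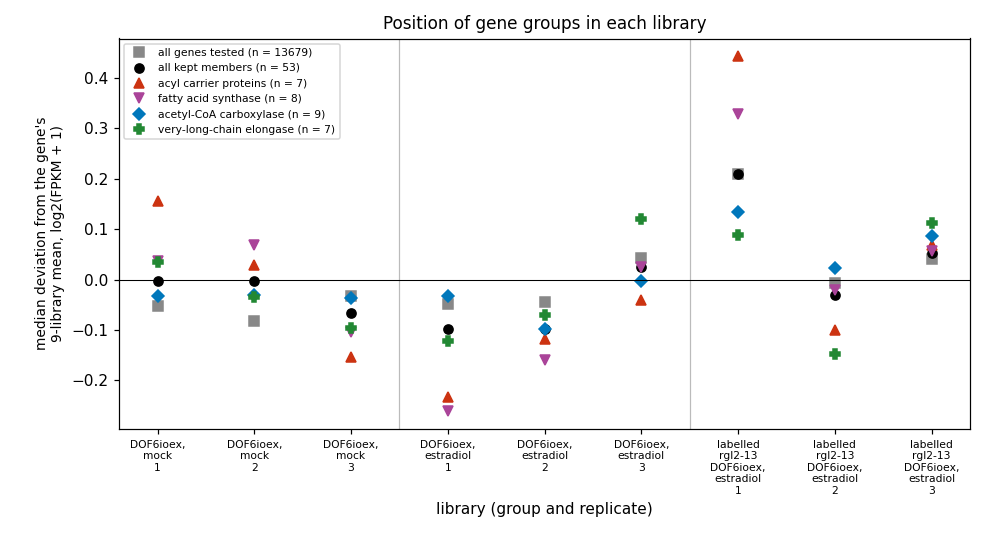
Median deviation of each gene group from the genes' 9-library means, in log2(FPKM + 1), for each library (horizontal axis, by group and replicate). Grey squares are all 13679 genes, black circles the 53 fatty acid genes, and the other symbols 4 roles; in replicate 1 of the libraries labelled rgl2-13 DOF6ioex the acyl carrier proteins lie at 0.44 and the synthase genes at 0.33, above the 0.21 of all genes.

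The single library that stood apart also held the highest value of many fatty acid genes. Replicate 1 of the libraries labelled rgl2-13 DOF6ioex was the highest of the 9 for 31 of the 53 genes (58.5%), as it was for 59.1% of all genes past the floor. The 53 genes lay 0.21 above their 9-library means there, the same as all genes. Acyl carrier proteins lay 0.44 above and synthase genes 0.33 above, whereas the carboxylase group lay at 0.13 and the elongases at 0.09. In summed FPKM, the 7 acyl carrier proteins reached 124.9 in that library against 70.0 to 90.0 in the other 8, and the 8 synthase genes 38.1 against 24.0 to 30.8. What sets this library apart was not tested.

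The libraries labelled rgl2-13 DOF6ioex in estradiol were also compared with DOF6ioex in mock, a contrast of both treatment and background. Once more 0 of the 53 genes passed the test (smallest adjusted p = 0.107), against 62 higher (0.453%) and 16 lower (0.117%) of all genes, 0.57% in all. The smallest adjusted p was that of FATB, at 12.1 ± 0.359 FPKM (SD, 3 libraries) in mock and 15.2 ± 1.45 in the third group, a log2 difference of 0.30 ± 0.09 (SE; 95% interval 0.11 to 0.50). FAH1 followed, at 88.9 ± 6.87 FPKM in the third group, with a log2 difference of 0.28 ± 0.08 (adjusted p = 0.113). At an unadjusted p under 0.05, limma counted 5 fatty acid genes higher (9.43%, against 22.8% of all genes) and 0 lower (against 2.43%): FATB, FAH1, KIN10, AT3G15690 and KCS5. Without replicate 1 of the third group the count was 3 higher and 1 lower (1883 and 411 of all genes, against 3115 and 332). Over all single libraries left out it ranged from 2 to 9 higher, while the count of all genes ranged from 1635 to 4082 higher. With median-of-ratios scaling it was 1 higher and 2 lower, with 1143 and 1298 among all genes. The share of the fatty acid genes without rescaling lay below that of all genes, a difference that was not tested. Without replicate 1 of the third group the difference was 0.23 for FATB and 0.23 for FAH1.

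Groups did not overlap for 8 fatty acid genes, higher in the third group (15.1%, against 27.3% of all genes), and for 1, AT3G02620, lower (1.89%, against 3.49%). FAH2 is again among the 8 by its selection, and without it the count is 7 of 52. AT3G02620 differed by -0.20 ± 0.10 on the log2 scale (adjusted p = 0.224). Fitted differences were positive for 45 of the 53 genes (84.9%, against 80.1% of all genes), with a median of 0.11 beside 0.14 for all genes. Median-of-ratios scaling brought the median of all genes to 0.00 and that of the 53 genes to -0.03, with 23 fitted higher and 30 lower, so the direction of the group as a whole turned with the scaling. The acyl carrier median was 0.16 (0.00 under that scaling) and the synthase median 0.11 (-0.03 under that scaling, a change of sign), and without replicate 1 of the third group both were 0.02. FATB and FAH1 kept their direction under each of the 15 alternatives. Their groups did not overlap, so among these only the rescalings could have turned it. The 95% intervals lay within 2-fold for all 53 genes tested and within 1.5-fold for 48, with outermost bounds of -0.55, for FAD8, and 0.95, for KCS10. With a pseudocount of 0.1 FPKM, 51 intervals lay within 2-fold.

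Genes next to the pathway did not pass the test either. Of 59 genes listed for plastid carbon supply, desaturation, elongation, wax, acyl-CoA synthesis, oil assembly, lipoic acid and regulation that were not among the 80, 40 passed the level floor, and 0 passed the test in any of the 3 comparisons. At an unadjusted p under 0.05, limma counted 1 higher and 2 lower for estradiol against mock in DOF6ioex (4.51% and 2.31% of all genes), 8 higher and 0 lower between the backgrounds in estradiol (12.6% and 2.63% of all genes), and 5 higher and 0 lower for the third group against mock (22.8% and 2.43% of all genes). Their median log2 differences were -0.01, 0.19 and 0.11, beside 0.04, 0.11 and 0.14 for all genes. These counts and medians include replicate 1 of the third group and no rescaling, and are not given without that library. Several were among the more abundant lipid genes of the seed: the endoplasmic reticulum oleate desaturase FAD2 was at 47.3 to 75.2 FPKM, the acyltransferase TAG1 that completes triacylglycerol at 58.6 to 78.7, the acyl-CoA desaturase homologue ADS2 at 74.5 to 96.6, the acyl-CoA synthetases LACS8, LACS6 and LACS7, of which the last 2 are peroxisomal, at 45.8 to 58.7, 41.8 to 55.9 and 38.7 to 58.1, the lipoate synthase LIP1 at 50.7 to 58.1, and the plastid glucose-6-phosphate transporter GPT1 at 36.4 to 52.6. The plastid desaturase FAD5 was at 34.4 to 40.6 FPKM and PKP-ALPHA, the partner subunit of PKP-BETA1, at 32.3 to 41.4. The cytosolic homomeric carboxylase ACC1, the lysophosphatidic acid acyltransferase LPAT2, the elongase reductase KCR1 and PDH-E1 ALPHA were at 10.46 to 13.9, 13.9 to 23.2, 12.9 to 20.2 and 8.09 to 16.1 FPKM.

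The other genes of highest level in these lists were lower. LPLAT1, CER10 and LIP2 were at 8.39 to 9.68, 6.60 to 9.56 and 5.54 to 7.74 FPKM, and AT5G08415, AT3G56130, AT3G02610 and CER3 lay between 0.74 and 3.29 FPKM, while AT5G16240, CER2 and CYP96A15 lay below the floor. PAS2, the dehydratase of the elongase complex, was at 6.36, 6.48 and 6.78 FPKM in mock, at 3.69, 6.70 and 3.09 in DOF6ioex with estradiol and at 7.51, 6.20 and 4.84 in the third group. Replicates 1 and 3 of DOF6ioex in estradiol were the lowest, and the log2 difference of that group from mock was -0.51 ± 0.20 (adjusted p = 0.693).

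SSI2, a stearoyl-ACP desaturase left out of the 80 genes by its jasmonic acid annotation, was at 26.3, 21.2 and 23.2 FPKM in mock, at 16.4, 19.9 and 20.2 in DOF6ioex with estradiol and at 23.7, 21.6 and 21.99 in the third group. The estradiol-treated DOF6ioex libraries lay below both other groups, by a log2 difference of -0.31 ± 0.11 from mock (adjusted p = 0.646) that did not pass the test. Of the seed maturation regulators, ABI3 was at 64.1 to 88.9 FPKM. FUS3, which activates storage programmes in the developing embryo, was at 4.34, 3.43 and 7.89 FPKM in mock, at 7.88, 7.37 and 5.15 in DOF6ioex with estradiol and at 5.54, 11.4 and 9.85 in the third group, and all 3 groups overlapped. Its log2 difference from mock was 0.37 ± 0.27 in DOF6ioex with estradiol (adjusted p = 0.806) and 0.69 ± 0.27 in the third group (adjusted p = 0.157), and between the estradiol groups it was 0.31 ± 0.27 (adjusted p = 0.537). For FUS3 replicate 1 was the lowest library of the third group, at 5.54 FPKM, and these differences are not given without it. LEC1 and LEC2 did not exceed 0.04 FPKM.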

How the data were processed

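RNA sequencing of 9 Arabidopsis seed libraries (3 groups of 3) was analysed from 6 deposited tables, each of which sets 1 library beside another. Alignment used HISAT, per the submitters' processing notes. The sources used here name no version, genome build or quantification tool. The authors deposited FPKM, per the file headers. In 1 deposited table the authors head the columns RPKM, per the file headers; the library that it shares with an FPKM table has the same values, so both are called FPKM. The authors normalized to gene length and fragments; the deposited gene lengths, of the unit bases, were compared with TAIR10.1, where 11328 of 12359 single-transcript genes (91.7%) had the same length. The deposited log2 ratios of library pairs, the authors' own, were read but give no result here. The lowest listed value is 0.01, and genes not listed for a library (16568 values) were set to it. Of 59935 values given in more than 1 table, 0 differed.

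Genes that reached 1 FPKM in at least 3 libraries were tested with limma 3.58.1 in R 4.3.3 (moderated test with trend on log2(FPKM + 1), 1 mean per group, Benjamini-Hochberg adjustment over 13679 genes, threshold 0.05), after a test on simulated data. Depth is unknown, so no counting interval can be given for a level. The members and gene lists were chosen with earlier results of these data known, so lists are described by counts and medians with no test of their own. The genes named are, per role, up to 5 with the highest mean, those without overlap between groups and at 5 FPKM or more with the largest differences, and per related list the 3 with the highest mean; other genes are named to complete a role, for an unadjusted p under 0.05 or for lying below the floor, and were chosen after their values were seen. The RefSeq table named 77 of the 80 genes. Sequences come from RefSeq TAIR10.1, with matches found in Python 3.11.15. No pairing of the libraries by replicate number was seen, and the main fit used none.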

Additional observations from a re-analysis of the deposited data

How the results depend on the processing

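None of the 53 fatty acid genes passed the threshold in any of the 48 fits (16 settings in each of 3 comparisons, limma), and the smallest adjusted p in any of them was 0.0622, in the third group against mock without replicate 2 of the third group. The 29 single-gene differences with an unadjusted p under 0.05 or without overlap kept their direction and their side of the threshold in 433 of 435 alternatives. The exception was CAC3 in the third group against mock, at -0.04 with median-of-ratios and -0.03 with upper quartile scaling. Much of this count was fixed in advance. No fatty acid gene passed in any fit, so none changed its side. With no floor, 6 libraries, a replicate block or a library of the uncompared group left out, the estimate of a gene stays the same. Leaving out a library cannot turn a difference between groups that do not overlap. The median over the 53 genes ranged from -0.08 to -0.01 when each library was left out in turn for estradiol against mock in DOF6ioex, from 0.05 to 0.21 between the backgrounds in estradiol, and from 0.03 to 0.17 for the third group against mock, where both scalings brought it to -0.03. The cause was not tested. Counts over all genes moved more. For estradiol against mock in DOF6ioex, 21 genes became 4 with no level floor, 57 with either scaling, 100 with only the 6 libraries compared and 5 to 89 when each library was left out. Between the backgrounds, 22 became 4 with no floor, 7 with 6 libraries and 8 to 27 with a library left out. For the third group against mock, 78 became 5 with no floor, 136 with median-of-ratios and 130 with upper quartile scaling, 15 with 6 libraries and 8 to 225 with a library left out. With no floor more genes are tested, and with 6 libraries fewer samples estimate the spread. Median-of-ratios scaling changed the split of higher and lower calls from 4 and 17 to 7 and 50, from 19 and 3 to 20 and 6, and from 62 and 16 to 66 and 70. No pairing by replicate number was seen: correlations were -0.412 to 0.253 for same-numbered libraries and -0.389 to 0.355 for differently numbered ones. So few libraries per group cannot exclude a pairing. With a replicate block the counts over all genes were 12, 11 and 12 and those of fatty acid genes 0, 0 and 0. Counting only the bases before the gene start, the AW-box was in 9.3% of all protein-coding genes, 9.93% of those past the floor, 1.96% of the fatty acid genes and 0% of the 21 genes of plastid carbon supply and synthesis (9.52% in the whole window). Read depth is unknown, and low genes are the least precise.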
